A study of Rattus norvegicus with 6 samples.

Results

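The proteasome genes described here are all genes on the arrays whose symbol starts with Psma, Psmb, Psmc, Psmd, Psme, Psmf or Psmg, apart from the interferon-induced catalytic subunits Psmb8 and Psmb9. The rule took in 44 of 14217 genes, measured by 58 probe sets, and the brightest probe set of each, by its mean over all arrays, stands for the gene. Of the 44, 14 encode subunits of the core particle, 17 encode subunits of the regulatory particle, 5 stand in the class of activators and inhibitor and 7 encode assembly factors. The remaining gene, Psmc3ip, is taken in by its symbol and encodes a cofactor of meiotic recombination. Psme3ip1, in the activator class by its symbol, encodes a protein that binds the activator subunit Psme3 and is no activator itself. Psmb6 and Psme3 stand on probe sets shared with other genes and are not reported.

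RNA came from primary rat Schwann cells, the glia of peripheral nerve, taken from sciatic nerve and hybridised to Affymetrix arrays. All 6 cultures carried RafER, a Raf kinase fused to the ligand-binding domain of an estrogen receptor, and were kept in minimal medium on coated dishes. In each of 3 experiments 1 culture received the EtOH vehicle and 1 received Tamoxifen, which activates the fusion kinase, for 24 h. Arrays with the same number in their titles were taken as 1 experiment, on the evidence of the values and not of a stated batch. Cells lacking RafER were not analysed here, so the action of tamoxifen itself and that of Raf cannot be told apart. The sources used here do not state the promoter that drives RafER or the age of the rats. The source labels name treated rats where the design text places the treatment in the dish, and the design text was followed.

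The proteasome is the protease of cytosol and nucleus that degrades proteins marked with ubiquitin. Its core particle is a barrel of stacked rings, with alpha subunits forming the gate and beta subunits carrying the proteolytic sites. The regulatory particle recognises ubiquitin chains, removes them and unfolds the substrate with a ring of ATPases, and dedicated chaperones help both particles to assemble.

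The labelled cell type was checked against markers. Of 10 Schwann markers 7 were measured, with mean log2 values of 8.70 to 13.18 on the vehicle arrays. Among them were S100b (13.11), Ngfr (12.99) and Sox10 (11.58). The mean level of the 7 was 11.22 to 11.45 on the vehicle arrays and 10.01 to 10.43 on the tamoxifen arrays, and 4 fell. Of markers of other cell types, the mean level of 8 fibroblast markers was 7.84 to 7.99 with vehicle and 7.97 to 8.12 with tamoxifen (2 rose and 2 fell). That mean covers unlike levels. Col1a2 (13.26), Postn (13.19) and Col1a1 (13.15) were as bright with vehicle as the brightest Schwann markers. The other fibroblast markers had vehicle means from 3.44 (Lum) to 6.35 (Fbln1). The mean level of 8 macrophage markers was 4.76 to 4.86 and 4.95 to 5.14 (1 rose). None of 5 endothelial (4.51 to 4.58 and 4.51 to 4.66), 5 smooth muscle and pericyte (5.40 to 5.47 and 5.48 to 5.61) or 4 lymphocyte markers (4.82 to 4.96 and 4.93 to 4.97) passed limma's test, and at an unadjusted p below 0.05 there was 1 of these, a smooth muscle and pericyte marker. All 6 genes of proliferating cells rose, from a mean level of 6.70 to 6.94 to one of 8.67 to 9.95. The 3' minus 5' difference of 3 control transcripts, a sign of RNA quality, was 0.84 log2 units on vehicle array 1 and 0.16 to 0.27 on the others. The part of these shifts in the changes below was not tested, except that a fit with that difference as covariate was also run.

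Proteasome transcripts were abundant and moved little, mostly upward. All 44 genes lay above the median level of all genes, and their own median stood at percentile 91.7. After tamoxifen 8 of 44 rose (18.2%) and 2 fell (4.55%) at an adjusted p below 0.05 in limma's moderated test across all probe sets. Of all 14217 genes 13.9% rose and 17.3% fell, and of the 6538 genes at least as bright as the dimmest proteasome gene 20.1% rose and 25.1% fell. The share of proteasome genes that rose was therefore near the background, and the share that fell was below it. The risers were the core subunits Psma7, Psmb7 and Psmb10, the ATPases Psmc5 and Psmc6, the lid subunits Psmd12 and Psmd14 and the assembly factor Psmd10. Psmf1 and Psme3ip1 fell. At an unadjusted p below 0.05, 17 of 44 were higher (38.6%, against 19.8% of all genes and 26.1% of the genes at least as bright). The same number as above, 2, were lower (against 23.6% and 33.9%). By that looser measure 10 of 14 core particle genes (71.4%) and 5 of 17 regulatory particle genes (29.4%) were higher, and none of either particle was lower. The regulatory particle share was near that of the genes at least as bright (26.1%). The unadjusted count of 17 became 11 with median centring, with dim probe sets filtered out or with the 3' minus 5' covariate. With a single array left out it ran from 8 to 18. Background shares at that looser cut were counted in the reported analysis alone.

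The median log2 difference of the 44 genes, tamoxifen minus vehicle, was 0.19, against 0.01 for all genes and -0.08 for the genes at least as bright. A closer background, the 1182 genes at least as bright as the median proteasome gene, had a median of 0.02. Of these 1182 genes 22.3% rose and 20.1% fell. At an unadjusted p below 0.05 in limma 30.0% of them were higher and 27.2% lower. The middle 50% of proteasome genes lay between 0.03 and 0.31, those of all genes between -0.31 and 0.21. Differences ran from -0.61 to 0.71, and 2984 genes (21.0%) changed by more than the largest of them. Of the 44 genes 34 had a difference above 0 (77.3%, against 51.7% of all genes). For 20 of 44 (45.5%) the 3 tamoxifen values all lay above the 3 vehicle values, and for 4 (9.09%) all lay below. Over all genes these shares were 23.7% and 25.4%, and over the genes at least as bright as the dimmest proteasome gene 27.2% and 35.6%. With same-numbered arrays paired, the difference was above 0 for 27, 34 and 34 of 44 genes in experiments 1, 2 and 3. The medians were 0.06, 0.16 and 0.29. Members were chosen with results of these data known, so no test of the group as a whole is given.

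The median standard error was 0.10. Calls followed the size of the difference outside a narrow band: every difference larger than that of Psmg2 (0.43) passed and every one smaller than that of Psmd12 (0.39) did not. In the band, Psmd12 and Psmd10 passed, and Psmg2 and Psme4 did not. Tamoxifen array 1 was lower than the mean of its group for 41 of 44 genes, and without it 11 proteasome genes rose and 1 fell. The number that rose was 4 without vehicle array 1, 6 without vehicle array 2, 4 without vehicle array 3, 3 without tamoxifen array 2 and 4 without tamoxifen array 3. In the fit that took the 3' minus 5' difference as covariate it was 4. Psma7, Psmb7, Psmd14 and Psme3ip1 kept their calls whichever single array was left out.

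**Figure D1:**
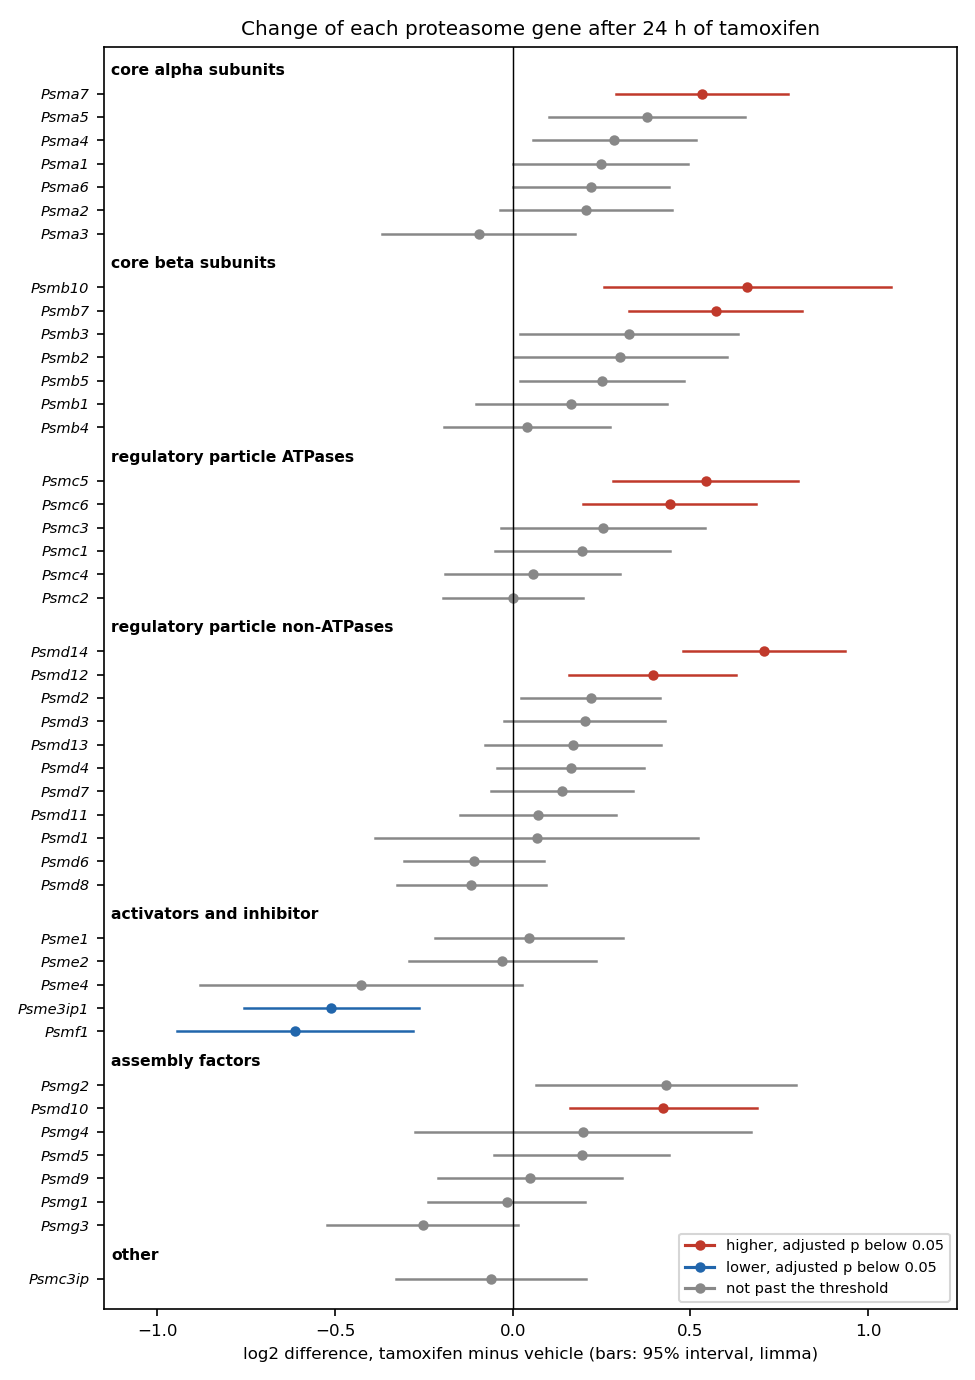
Log2 difference between tamoxifen and vehicle (horizontal axis) for each of the 44 proteasome genes, grouped by role, with points for the estimate and bars for its 95% interval from limma (3 arrays per group). Most core and regulatory particle genes lie to the right of 0, with 8 genes past the threshold, while the genes past the threshold on the left are Psme3ip1 and Psmf1.

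**Figure D2:**
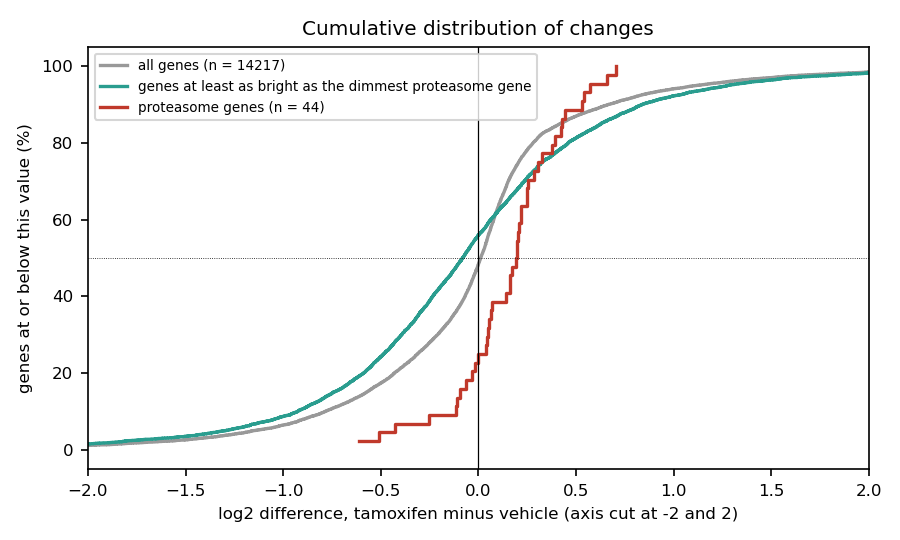
Share of genes (vertical axis, %) at or below each log2 difference (horizontal axis) for all 14217 genes, for the 6538 genes at least as bright as the dimmest proteasome gene and for the 44 proteasome genes. The proteasome curve is steep and crosses 50% at 0.19, with no gene beyond 0.71 on the right or -0.61 on the left.

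Promoters are shown for all genes past the threshold that had a match in RefSeq: 5 that rose (Psmb7, Psmb10, Psmc5, Psmc6 and Psmd10) and 2 that fell (Psmf1 and Psme3ip1). Each runs from 250 bases before the RefSeq start site to 50 bases from it onward (build GRCr8). Capitals mark matches on either strand to the ETS motif CCGGAAG, the AP-1 motif TGACTCA, the NF-Y motif CCAAT or the antioxidant response element core TGACNNNGC, the last of which shares its first bases with the AP-1 motif. Psmb7 lies at chr3:42827421-42827720 on the minus strand. Psmb10 lies at chr19:50743243-50743542 on the minus strand. Psmc5 lies at chr10:91687303-91687602 on the plus strand. Psmc6 lies at chr15:21022064-21022363 on the plus strand. Psmd10 lies at chrX:109453556-109453855 on the minus strand. Psmf1 lies at chr3:160720866-160721165 on the minus strand. Psme3ip1 lies at chr19:10407302-10407601 on the plus strand.
Psmb7: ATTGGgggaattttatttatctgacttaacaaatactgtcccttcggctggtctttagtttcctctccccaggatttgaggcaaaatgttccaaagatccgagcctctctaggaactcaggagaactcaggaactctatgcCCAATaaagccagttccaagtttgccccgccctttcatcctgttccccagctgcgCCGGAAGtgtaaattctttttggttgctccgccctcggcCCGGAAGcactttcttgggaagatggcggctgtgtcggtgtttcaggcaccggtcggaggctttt
Psmb10: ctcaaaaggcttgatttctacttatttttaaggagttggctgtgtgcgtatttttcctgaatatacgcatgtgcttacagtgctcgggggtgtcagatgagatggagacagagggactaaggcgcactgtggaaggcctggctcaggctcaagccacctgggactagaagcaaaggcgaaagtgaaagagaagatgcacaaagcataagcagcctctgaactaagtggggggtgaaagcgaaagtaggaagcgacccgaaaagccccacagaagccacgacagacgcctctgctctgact
Psmc5: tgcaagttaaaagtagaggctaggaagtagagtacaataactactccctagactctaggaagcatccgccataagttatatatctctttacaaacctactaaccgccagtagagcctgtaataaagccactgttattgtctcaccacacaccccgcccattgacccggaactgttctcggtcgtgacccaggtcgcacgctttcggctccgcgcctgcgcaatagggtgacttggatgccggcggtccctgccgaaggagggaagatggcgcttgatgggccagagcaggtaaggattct
Psmc6: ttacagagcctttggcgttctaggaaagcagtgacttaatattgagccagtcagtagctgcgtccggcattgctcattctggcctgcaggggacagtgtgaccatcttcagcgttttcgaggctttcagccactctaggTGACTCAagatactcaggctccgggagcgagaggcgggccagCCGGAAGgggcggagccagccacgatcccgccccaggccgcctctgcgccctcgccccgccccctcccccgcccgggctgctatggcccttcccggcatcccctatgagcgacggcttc
Psmd10: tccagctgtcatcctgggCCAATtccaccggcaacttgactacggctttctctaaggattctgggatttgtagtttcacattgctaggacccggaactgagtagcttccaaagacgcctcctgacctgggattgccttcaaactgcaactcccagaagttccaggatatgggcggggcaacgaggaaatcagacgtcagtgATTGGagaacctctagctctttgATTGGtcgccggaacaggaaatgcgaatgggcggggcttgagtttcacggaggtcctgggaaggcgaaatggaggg
Psmf1: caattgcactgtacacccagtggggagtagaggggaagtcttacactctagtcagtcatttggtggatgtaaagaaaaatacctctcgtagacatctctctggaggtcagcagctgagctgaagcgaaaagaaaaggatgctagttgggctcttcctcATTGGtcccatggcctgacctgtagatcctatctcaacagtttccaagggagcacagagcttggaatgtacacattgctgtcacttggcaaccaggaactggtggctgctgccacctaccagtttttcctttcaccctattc
Psme3ip1: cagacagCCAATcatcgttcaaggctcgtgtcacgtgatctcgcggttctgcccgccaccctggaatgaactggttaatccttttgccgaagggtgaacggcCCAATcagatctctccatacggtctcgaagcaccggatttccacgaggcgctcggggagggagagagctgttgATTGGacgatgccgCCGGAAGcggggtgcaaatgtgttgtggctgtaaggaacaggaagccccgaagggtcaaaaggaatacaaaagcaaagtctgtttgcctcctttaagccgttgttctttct

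The Psmb7 promoter holds the ETS motif, which ETS factors downstream of ERK can bind, with first bases at -54 and -15 relative to the start site, and CCAAT or its reverse at -250 and -109. That of Psmc6 holds the ETS motif at -69 and the AP-1 motif at -111. Psmd10 holds CCAAT or its reverse at -232, -49 and -26, and the windows of Psmb10 and Psmc5 hold none of the 4 motifs. Of the genes that fell, Psme3ip1 holds the ETS motif at -61 and CCAAT or its reverse at -243, -148 and -75, and Psmf1 holds the reverse of CCAAT at -92 alone. RefSeq promoters were matched for 40 of the 44 genes. The ETS motif was in 15 of 40 (37.5%), against 15.1% of 11733 promoters of genes measured here. By particle it was in 3 of 13 core genes and 7 of 14 regulatory particle genes. The antioxidant response element core, bound by NRF1 and NRF2, was in 7 of 40 (17.5%, against 14.4%), CCAAT in 20 of 40 (50%, against 37.3%) and the AP-1 motif in 1 of 40 (2.5%, against 3.80%). The ETS motif was in 2 of the 5 promoters of genes that rose, 1 of the 2 of genes that fell and 12 of the 33 of genes that did not pass. The antioxidant response element core was in none of the first, none of the second and 7 of the last. A match describes letters in the window and does not show that a factor binds there.

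Among the 7 alpha subunits of the core, 1 rose and none fell, with a median difference of 0.25. Beside this class and those that follow, 13.9% of all genes rose and 17.3% fell. Psma7 had log2 values of 11.90, 11.95 and 11.94 on vehicle arrays 1 to 3 and of 12.28, 12.54 and 12.56 on tamoxifen arrays 1 to 3. The groups did not overlap, and the vehicle arrays were closer to each other than the tamoxifen arrays. The difference was 0.53 ± 0.10 (SE), a 1.45-fold rise (adjusted p = 0.0111). Psma5 (0.38), Psma4 (0.29), Psma1 (0.25) and Psma6 (0.22) also had groups that did not overlap and did not pass. Of these, Psma5 stood just outside the threshold (adjusted p = 0.0567), and without tamoxifen array 1 its difference was 0.48 (adjusted p = 0.0247). Psma2 (0.21) and Psma3 (-0.10) had overlapping groups. Psma6 was the brightest proteasome gene, with a vehicle level of 12.82 ± 0.04 (SD, n = 3).

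All 7 measured beta subunits had differences above 0, and 2 rose, both of the kind that carries the trypsin-like site. Psmb7, the constitutive form of that subunit, read 11.28, 11.39 and 11.22 with vehicle and 11.72, 11.92 and 11.97 with tamoxifen. Every tamoxifen value lay above every vehicle value, and the difference was 0.57 ± 0.10 (1.49-fold, adjusted p = 0.00883). Psmb10 encodes the form that takes its place in the immunoproteasome. It read 7.62, 7.64 and 7.47 with vehicle and 7.86, 8.48 and 8.37 with tamoxifen. Its groups did not overlap, with tamoxifen array 1 nearer to the vehicle arrays than the other tamoxifen arrays were. The difference was 0.66 ± 0.17 (1.58-fold, adjusted p = 0.0316), and Psmb10 was the dimmest proteasome gene.

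Psmb10 no longer passed when any of the 3 vehicle arrays (adjusted p = 0.0555, 0.0690 and 0.0890) or tamoxifen array 2 (0.0985) or 3 (0.104) was left out, nor with the 3' minus 5' covariate (0.0710). Psmb5, which carries the chymotrypsin-like site, had a difference of 0.25 ± 0.10 (adjusted p = 0.111) and groups that did not overlap. Its other probe sets were dim, with means of 6.62 and 5.22. Each gave 0.22, and the groups of the dimmest overlapped. Psmb3 (0.33), Psmb2 (0.30), Psmb1 (0.16) and Psmb4 (0.04) did not pass either. Without tamoxifen array 1, Psmb3 (0.44, adjusted p = 0.0443) and Psmb2 (0.42, adjusted p = 0.0450) did.

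The symbol rule leaves out the catalytic partners of Psmb10 in the immunoproteasome. Psmb9 read 7.02, 7.22 and 7.66 with vehicle and 6.42, 6.56 and 6.59 with tamoxifen, so the groups did not overlap in the opposite direction. It fell by 0.78 ± 0.17 (adjusted p = 0.0164), a call lost without tamoxifen array 1 (0.0557) or 2 (0.0540). Psmb8 differed by -0.29 ± 0.09 (adjusted p = 0.0564). It passed with median centring (adjusted p = 0.0399), array weights (0.0377) or the mean of probe sets (0.0474). In the remaining 15 of 18 alternative settings Psmb8 did not pass, and with arrays left out its smallest difference was -0.23. The immunoproteasome and peptide loading list holds these 2 with Tap1, Tap2, Tapbp, B2m and Erap1. Of its 7 genes none rose (none at an unadjusted p below 0.05 in limma) and Psmb9 alone fell. Over all genes 13.9% rose and 17.3% fell.

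Of the 6 ATPases of the regulatory particle, whose ring threads substrates into the core, 2 rose and none fell, with a median difference of 0.22. Psmc5 read 10.54, 10.48 and 10.25 with vehicle and 10.86, 11.00 and 11.05 with tamoxifen. The groups did not overlap, and the difference was 0.54 ± 0.11 (1.46-fold, adjusted p = 0.0132), a call lost without tamoxifen array 2 (0.0522). Psmc6 read 10.03, 10.28 and 10.04 with vehicle and 10.51, 10.64 and 10.53 with tamoxifen. These groups did not overlap either, with vehicle array 2 the nearest to the tamoxifen arrays.

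Psmc6 rose by 0.44 ± 0.10 (1.36-fold, adjusted p = 0.0216) by its brightest probe set, while the other probe sets gave 0.27 (adjusted p = 0.137) and 0.17 (0.332). It no longer passed when vehicle array 1 (0.0512) or 3 (0.0667) or tamoxifen array 2 (0.0793) or 3 (0.0574) was left out, with the 3' minus 5' covariate (0.0583) and with the mean of its probe sets (0.0743). The other ATPases spanned a range down to 0. Psmc3 (0.25) and Psmc1 (0.20) had differences above 0 that did not pass, Psmc4 had 0.06 ± 0.10 and Psmc2 had 0.00 ± 0.08, with a 95% interval of -0.20 to 0.20.

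Of the 11 remaining subunits of the regulatory particle 2 rose and none fell, and the median difference was 0.16. Psmd14, the metalloprotease that cuts ubiquitin chains from the substrate, had the largest difference of the 44 genes. It read 10.81, 10.96 and 10.77 with vehicle and 11.45, 11.62 and 11.59 with tamoxifen. The lowest tamoxifen value stood clear of the highest vehicle value, and the difference was 0.71 ± 0.10 (1.63-fold, adjusted p = 0.00329). Its other probe sets also rose, by 0.68 (adjusted p = 0.00758) and 0.44 (0.0370). Against a minimum fold of 1.2 it was the 1 proteasome gene that passed.

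Psmd12, a scaffold subunit of the lid, read 10.33, 10.52 and 10.25 with vehicle and 10.75, 10.73 and 10.81 with tamoxifen. The groups did not overlap, with a difference of 0.39 ± 0.10 (1.31-fold, adjusted p = 0.0289). This call was lost with the experiment as a replicate block (adjusted p = 0.0509) and with the 3' minus 5' covariate (0.0751). Leaving out vehicle array 1 (0.0633) or 3 (0.0833) or any of the 3 tamoxifen arrays (0.0730, 0.0765 and 0.0907) ended it too.

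The other lid and base subunits did not pass. Psmd2, a large scaffold of the base, had a difference of 0.22, and Psmd3 (0.20), the ubiquitin receptor Psmd4 (0.16) and Psmd7 (0.14), the partner of Psmd14, had groups that did not overlap. Psmd13 (0.17), Psmd11 (0.07) and Psmd8 (-0.12) had overlapping groups, and the 3 tamoxifen values of Psmd6 (-0.11) lay below the 3 vehicle values. Psmd1, the other large scaffold, differed by 0.07 ± 0.19. Its spread with vehicle was 0.36 (SD, n = 3), where vehicle array 1 read 10.27 and the others 9.70 and 9.60.

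**Figure D3:**
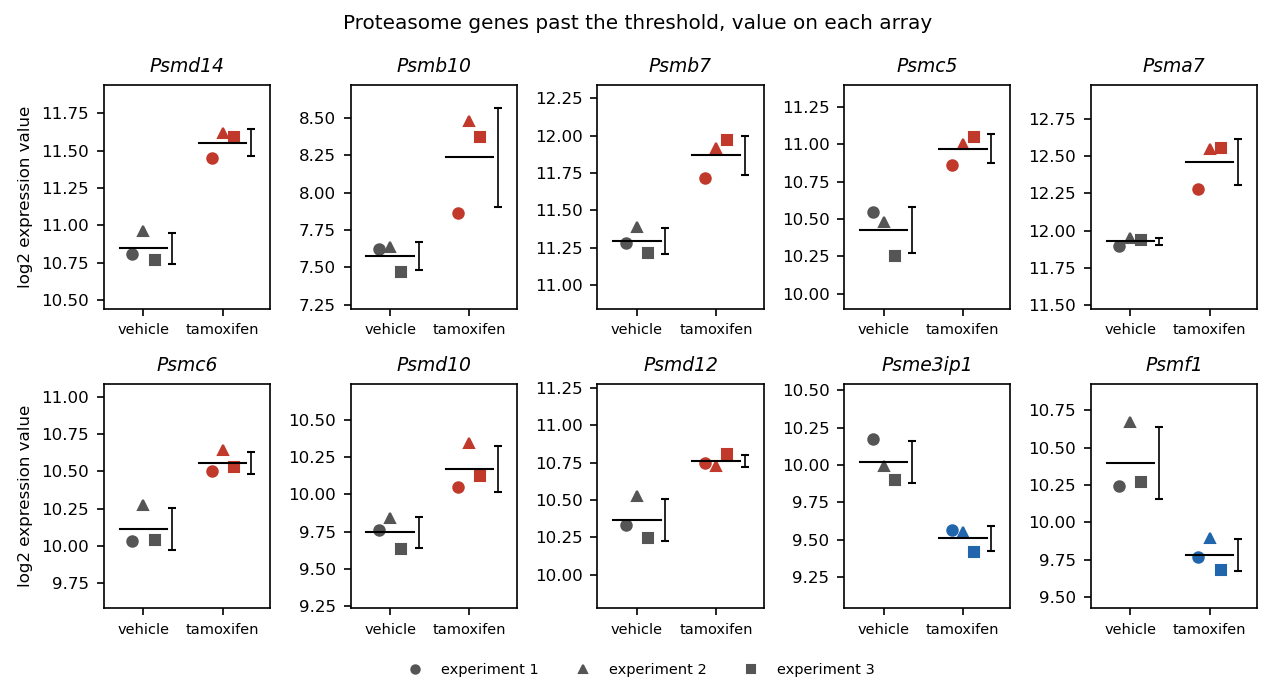
Log2 expression value on each array (vertical axis) for the 10 proteasome genes past the threshold. Marker shapes stand for the 3 experiments, taken from the array numbers, with horizontal lines for group means and bars for the SD (n = 3). Each panel spans the same number of log2 units, and the vehicle and tamoxifen values do not overlap in any of the 10.

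In the class of activators and inhibitor none of 5 rose in limma's test, and none was higher at an unadjusted p below 0.05. The median difference was -0.43. The number that fell was 2 (40%), against 17.3% of all genes and 25.1% of those at least as bright as the dimmest proteasome gene. Those 2 were the inhibitor Psmf1 and Psme3ip1, and no activator subunit passed by its brightest probe set. Psmf1, an inhibitor of core particle activity in the test tube, read 10.24, 10.67 and 10.27 with vehicle and 9.77, 9.90 and 9.68 with tamoxifen. The groups did not overlap, with vehicle array 2 apart from the other vehicle arrays. It fell by 0.61 ± 0.14 (1.53-fold lower, adjusted p = 0.0204), a call lost without tamoxifen array 1 (0.0607) or 3 (0.0712). Psme3ip1 read 10.17, 10.00 and 9.90 with vehicle and 9.57, 9.55 and 9.42 with tamoxifen. It fell by 0.51 ± 0.10 (1.42-fold lower, adjusted p = 0.0135).

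Psme4, an activator that caps the core in place of the regulatory particle, gave different answers by probe set. The brightest read 11.36, 11.00 and 10.63 with vehicle and 10.74, 10.46 and 10.50 with tamoxifen, groups that overlap, with a difference of -0.43 ± 0.19 (adjusted p = 0.161). A dimmer probe set read 10.89, 10.70 and 10.40 with vehicle and 9.91, 9.61 and 9.45 with tamoxifen, did not overlap and fell by 1.00 ± 0.17 (adjusted p = 0.00678). The third gave -0.31 (adjusted p = 0.249). The mean of the probe sets fell by 0.58 (adjusted p = 0.0466), and the brightest fell by 0.61 without vehicle array 3 (adjusted p = 0.0436). These were the only 2 of 18 alternative settings in which Psme4 passed. Without vehicle array 1 the difference of the brightest was -0.24. Psme1 and Psme2, which together form the interferon-inducible activator ring, differed by 0.05 ± 0.11 (95% interval -0.22 to 0.31) and -0.03 ± 0.11 (-0.29 to 0.23).

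Of 7 assembly factors 1 rose and none fell (2 and 0 at an unadjusted p below 0.05), with a median difference of 0.19. Psmd10, known as gankyrin, is a chaperone of the ATPase ring. It read 9.76, 9.84 and 9.64 with vehicle and 10.05, 10.34 and 10.13 with tamoxifen. The groups did not overlap, and the difference was 0.42 ± 0.11 (1.34-fold, adjusted p = 0.0336). It no longer passed when any of the 3 vehicle arrays (0.0611, 0.0544 and 0.0963) or tamoxifen array 2 (0.0983) or 3 (0.0765) was left out, with the 3' minus 5' covariate (0.0767) and with trend and robust variance (0.0513).

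The chaperone Psmg2, which helps the alpha ring to form, had a slightly larger difference of 0.43 ± 0.15 that did not pass (adjusted p = 0.0895). Its tamoxifen value in experiment 1 and its highest vehicle value, from the same experiment, were both 9.63, the former higher by 0.00468, and the other tamoxifen values were 10.10 and 10.08. Without tamoxifen array 1 its difference was 0.58 (adjusted p = 0.0244). Its binding partner Psmg1 differed by -0.02 ± 0.09. The chaperones of the ATPase ring Psmd5 (0.19) and Psmd9 (0.05) did not pass, nor did Psmg4 (0.20) and Psmg3 (-0.25), which act together on the alpha ring. The 3 tamoxifen values of Psmg3 lay below the 3 vehicle values. Psmc3ip differed by -0.06 ± 0.11 (adjusted p = 0.751), with values of 8.59, 8.56 and 8.56 with vehicle and 8.31, 8.69 and 8.54 with tamoxifen that overlap.

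Several factors that work on or with the proteasome carry other symbols. Of 16 measured proteasome-associated genes 7 rose (43.8%) and 1 fell (6.25%), with a median of 0.24. Beside this list and those that follow, 13.9% of all genes rose and 17.3% fell. Of the genes at least as bright as the dimmest proteasome gene 20.1% rose and 25.1% fell. The count of 7 rested on single arrays: it was 3 without vehicle array 2, vehicle array 3 or tamoxifen array 1, 4 without tamoxifen array 2 or 3, and 2 without both arrays of experiment 1. Pomp and Usp14 were called in all of these. The gene that fell was Ubqln2, a shuttle for ubiquitinated proteins (-0.62 by its brightest probe set, and -0.17 with adjusted p = 0.302 by the mean of its probe sets). Usp14, a deubiquitinase bound to the regulatory particle, read 11.00, 11.11 and 11.06 with vehicle and 11.81, 11.86 and 12.06 with tamoxifen, a difference of 0.85 ± 0.10 (adjusted p = 0.00192). Ddi2, a protease that activates the transcription factor NRF1, read 7.61, 7.30 and 7.17 with vehicle and 8.24, 7.84 and 8.60 with tamoxifen, a difference of 0.86 ± 0.21 (adjusted p = 0.0269). Both sets of values were without overlap. Ddi2 no longer passed when vehicle array 2 (0.0768) or 3 (0.0783) or tamoxifen array 1 (0.0752) or 3 (0.0646) was left out, and its dimmer probe set gave 0.08.

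Pomp and Sem1, also risers on that list, were chosen for naming after their values were seen. Pomp, the maturation factor of the core, rose by 0.58 ± 0.10 (adjusted p = 0.00636). Sem1, a small lid subunit, rose by 0.47 ± 0.12 (adjusted p = 0.0310), a call that ended when vehicle array 2 (0.0820) or 3 (0.0890) or tamoxifen array 1 (0.0687) or 2 (0.0785) was left out.

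The regulators of proteasome gene transcription split. Of 6 measured, 1 rose and 2 fell. Nfe2l1, which encodes NRF1, the factor known to raise proteasome genes when proteasome activity is low, differed by 0.04 ± 0.12 (adjusted p = 0.838). Ngly1, the glycanase that NRF1 needs for its activation, read 10.34, 10.38 and 10.34 with vehicle and 9.53, 9.47 and 8.82 with tamoxifen. It fell by 1.08 ± 0.19 (adjusted p = 0.00842), with no overlap. Mafk, a partner of NRF1 and NRF2 on DNA, fell by 1.04 ± 0.14 (adjusted p = 0.00358). Nfe2l2, which encodes NRF2, read 10.57, 10.51 and 11.20 with vehicle and 11.77, 11.62 and 11.83 with tamoxifen. It rose by 0.98 ± 0.19 (adjusted p = 0.0124) and was named after its value was seen. This call was lost without both arrays of experiment 1 (0.0767). Mafg, another partner of these factors, differed by 0.50 ± 0.24 and did not pass (adjusted p = 0.196), while its dimmer probe set gave 0.59 (adjusted p = 0.0423). It passed in 3 of 18 alternative settings: without vehicle array 1 (0.76, adjusted p = 0.0208), with the 3' minus 5' covariate and with the mean of its probe sets. Of 7 NRF2 target genes outside the proteasome 4 rose (57.1%) and none fell (5 and 1 at an unadjusted p below 0.05), with a median of 1.37. With the experiment as a replicate block 5 rose and 1 fell: Slc7a11, a cystine transporter, passed (1.53, adjusted p = 0.00111), as did Gclm, the partner subunit of Gclc, in the lower direction (-0.55, adjusted p = 0.0112). Without vehicle array 3 the counts were 6 and 1, and Gclm also passed with median centring and with dim probe sets filtered out. The largest of these rises were those of Gclc (2.04 ± 0.19, adjusted p = 0.00103), an enzyme of glutathione synthesis, and Hmox1 (1.67 ± 0.15, adjusted p = 0.000937), which degrades heme.

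The p97 segregase extracts ubiquitinated proteins for the proteasome. Of 9 of its genes 1 rose (11.1%, against 13.9% of all genes) and none fell (1 and 1 at an unadjusted p below 0.05). The riser was Faf1 (0.62 ± 0.13, adjusted p = 0.0168). That call was lost without vehicle array 2 (0.0538) or tamoxifen array 2 (0.0521) or 3 (0.0564), and with the mean of probe sets Nploc4 passed too (0.58, adjusted p = 0.0454). Of 3 measured genes of ubiquitin activation and recycling, the activating enzyme gene Uba6 rose (0.42 ± 0.12, adjusted p = 0.0401), and its other probe sets gave 0.65, 0.32 and 0.18. Uba1 (-0.28, adjusted p = 0.212) and Usp5 (-0.25, adjusted p = 0.171) lay below 0 and did not pass, and the median of the list was -0.25. The Uba6 call was lost without vehicle array 2 (0.0835) or 3 (0.107), without tamoxifen array 1 (0.110), 2 (0.0598) or 3 (0.0959), with median centring (0.0632) and with trend and robust variance (0.0741).

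The lid of the regulatory particle shares its architecture with the COP9 signalosome and with translation initiation factor eIF3. Of 10 COP9 signalosome genes 1 rose (10%, against 13.9% of all genes) and none fell (1 and 0 at an unadjusted p below 0.05), with a median of 0.06. That gene, Cops7a, rose by 0.44 ± 0.11 (adjusted p = 0.0298), a call that ended when vehicle array 1 (0.0679) or 2 (0.0883) or tamoxifen array 2 (0.0689) or 3 (0.0806) was left out, with the 3' minus 5' covariate (0.0763) and with the mean of its probe sets (0.0832). Of 11 measured eIF3 genes 4 rose (36.4%) and none fell (6 and 0 unadjusted), with a median of 0.31. The largest rises were those of Eif3i (0.77 ± 0.11, adjusted p = 0.00331) and Eif3d (0.67 ± 0.11, adjusted p = 0.00588). With the replicate block 3 eIF3 genes rose, and with the mean of probe sets 6 did. The proteasome median of 0.19 lay between these complexes, and no test sets them apart.

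**Figure D4:**
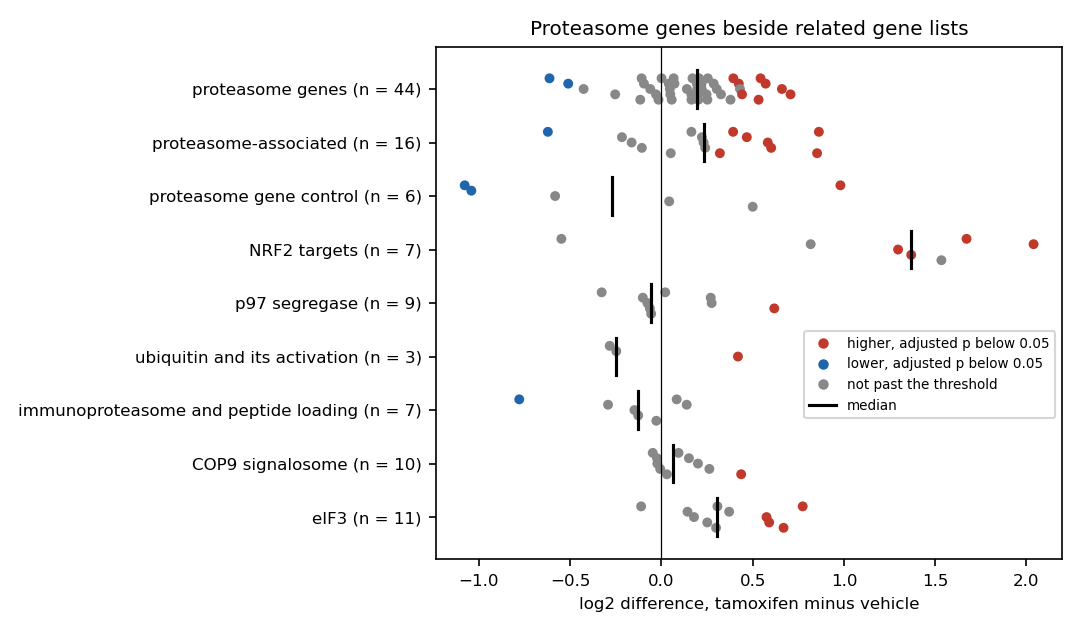
Log2 difference between tamoxifen and vehicle (horizontal axis) for each gene of the proteasome group and of 8 related lists, with 1 point per gene coloured by its limma call and a black bar at the median. The proteasome median is 0.19, that of eIF3 is 0.31, that of the COP9 signalosome 0.06 and that of the NRF2 targets 1.37.

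The probe sets of a gene did not pass in opposite directions for any of the 9 proteasome genes with several. Near-identical copies of a gene can add to the signal of a probe set: 17 of the 44 genes, among them Psma7, Psmb7, Psmc6, Psmd12 and Psmd14, have at least 1 pseudogene or like-named copy in RefSeq. Their share in these signals was not tested.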

How the data were processed

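Expression was measured on 6 Affymetrix rat arrays, 3 vehicle and 3 tamoxifen. The authors deposited log2 values, 1 for each probe set and array. The submitters' processing notes name RMA (background correction, normalization between arrays and a summary of the probes in a set), and the sources used here give no version. RMA compresses low values and no detection calls were used. Values ran from 2.99 to 14.58. The number of arrays limits the precision.

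Of 31099 probe sets, 57 manufacturer controls were left out. Genes were named from probe sets listed with 1 symbol (20826), with Entrez identifiers matched to RefSeq for 20764 annotation entries, and 14217 genes were each represented by the probe set of highest mean. Probe sets listed with several symbols (436) were not named. Tamoxifen was compared with vehicle using lmFit and eBayes of limma 3.58.1 (R 4.3.3) on all 6 arrays, two-sided, without covariates. P-values were Benjamini-Hochberg adjusted over 31042 probe sets with a threshold of 0.05. "Rose" and "fell" mean past it. With 3 arrays in each group, exact permutation reaches no p below 0.1 and was not used. The procedure was tested on simulated data.

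The design text calls the experiments independent. Whether a replicate is a separate animal is not stated, so p-values measure the spread between these samples. After subtraction of group means, same-numbered arrays correlated at 0.26, 0.20 and 0.28, all over 0.1, so the numbers in the sample titles were taken to pair the arrays, on the evidence of the values and not of a stated batch. Differently numbered arrays were not compared in this way, so the pairing remains an assumption. A fit with the number as a block was an alternative.

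The members and gene lists were chosen with earlier results of these data known. Values of every array are given for up to 2 members per role with the largest rise and up to 2 with the largest fall among those past the threshold, and for Psmc3ip. Psme4, Psmg2, Ubqln2, Mafg, Slc7a11, Gclm and Nploc4 were added after their values were seen, as were the genes said to be so in the text and the comparison with genes at least as bright. From each related list up to 2 genes past the threshold were named.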

Additional observations from a re-analysis of the deposited data

How the results depend on the processing

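The number of proteasome genes that rose was 8 and the number that fell was 2 in the reported analysis. These were 8 and 2 again, for the same genes, with cyclic loess, with quantile normalization, with median centring, when dim probe sets were filtered out and without probe sets of the suffixes _s_at, _x_at and _a_at. Trend and robust variance gave 8 and 2, with Psma5 in place of Psmd10. Array weights gave 10 and 2. With the experiment as a replicate block, which takes up the assumed pairing of the arrays, they were 7 and 2, and Psmd12 was the one member call it changed. The mean of probe sets gave 8 and 3.

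Without a single array the number that rose ran from 3 to 11 and the number that fell from 1 to 3. Without both arrays numbered 1 they were 7 and 1, with the calls of Psmc6, Psmd10, Psmd12 and Psmf1 ended and those of Psma5 and Psmg2 added. With the 3' minus 5' covariate 4 rose and 2 fell. Limma's test against a fold of 1.2 left 1 and 0 (5 and 2 at an unadjusted p below 0.05), and the alternative without Psmc3ip and Psme3ip1, added after seeing the data, gave 8 and 1. The median difference stayed between 0.15 and 0.24 over all these settings. No proteasome gene that passed in the reported analysis or in an alternative changed its direction. The small number of arrays limits differences of the size seen here.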
